A study of Mus musculus with 12 samples.

Results

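The collagen genes of mouse sciatic nerve are described here in 4 groups of 3 bulk RNA libraries. Members were all gene models whose symbol has the form Col, a number, a and a number, with a mean raw count of at least 10 over the 12 libraries. Of 43 such symbols 42 met this minimum, out of 38087 gene models in the table, and no symbol stood on more than 1 line. The symbol just outside was Col10a1, with a mean of 9.42 counts, and the members just inside were Col9a1, Col6a4 and Col22a1, with means of 30.4, 37.8 and 47.2 counts. The 42 genes comprise 11 fibrillar collagens, 8 basement membrane collagens (the type IV chains, Col15a1 and Col18a1) and 23 other collagens. All 42 passed the filter on low counts and were tested.

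Collagens are extracellular proteins built from chains that wind into a helix. Fibrillar collagens form the banded fibrils that bear tension in the endoneurium, the matrix around single axons and their Schwann cells. Type IV collagens form the sheet-like network of basement membranes, which in nerve surround each Schwann cell unit, the perineurial layers and the blood vessels. The other collagens attach to fibrils, form beaded filaments or small networks, or span the cell membrane.

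Control mice had the genotype Dhh-Cre-:Tfebflox/flox;Tfe3+, so they carried the floxed Tfeb alleles without a Cre recombinase and kept Tfe3. The other mice, called dKO, had the genotype Dhh-Cre+:Tfebflox/flox;Tfe3KO. Their Cre follows the expression of Dhh in Schwann cells and their precursors, so Tfeb is removed there and in any cells that descend from those precursors. Tfe3 is knocked out throughout the animal. Which other cells of the nerve lost Tfeb cannot be read from these bulk libraries. TFEB and TFE3 are related transcription factors of lysosomal genes. Nerves were taken 5 days after transection, from the part beyond the cut with the tissue nearest to it removed, and the uncut nerve of the opposite side served as intact nerve. The epineurium, the outer collagen-rich sheath, was removed from intact nerves, and for injured nerves no such step is stated, so injury and this step cannot be told apart for genes of the sheath. Ages are not given. Nothing in the labels says that libraries came from separate animals, so p-values measure the spread between these libraries, which may be technical. Nor do they say whether an intact and an injured library share a mouse, and the main test did not pair them.

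Library totals ran from 15430999 to 35845371 counts, and the 42 collagen genes held between 1.13% and 2.32% of them. Tfeb was at 22.6 to 26.9 CPM, the counts of a gene scaled to the library size, in intact control nerve and 17.0 to 19.5 in intact dKO nerve, and at 18.2 to 24.0 and 14.2 to 29.8 at 5 days. Tfe3 was at 56.7 to 62.1 and 43.3 to 47.4 CPM in intact nerve and at 55.0 to 67.6 and 49.5 to 53.8 at 5 days. Neither gene passed the test between genotypes (adjusted p = 0.856 and 0.841 in intact nerve, 0.883 and 0.126 at 5 days), and since gene models are counted whole, reads from exons outside a deletion are included and the labels are not checked by these values. Control replicate 1 at 5 days was a female library by Xist and Y-linked counts and the other 11 were male. It also held more hemoglobin, with Hbb-b1 at 3468 CPM against at most 476 in the others. Control replicate 4 and the 3 dKO libraries at 5 days stood apart by reads on olfactory receptor genes, with 174 to 365 such genes detected against 55 to 86 in the other 8 libraries, each library thinned to 15430999 counts. Results that use the injured libraries are therefore set beside those of a fit with a term for this library set, which rests on control replicate 4 against control replicates 1 and 2. That fit is given by counts, and for single genes where it ends a call or bears on the genes described most closely. Schwann cell markers summed to 41483 to 52872 CPM in intact nerve of either genotype and to 3059 to 4503 CPM at 5 days, and no Schwann cell marker was at 0 in any library. In bulk RNA, fewer cells of a type and less RNA per cell cannot be told apart.

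The level of each collagen gene was taken as CPM with library sizes scaled by edgeR, and divided by exon length in kilobases where genes are compared with each other. On that scale, averaged over the 12 libraries, Col1a1 stood first at 438 CPM per kb. Col1a1 and Col1a2 encode the chains of type I collagen, the main fibril protein of connective tissue. Col1a2 followed at 230 CPM per kb, and Col3a1, which encodes the chain of the thin reticular fibrils, at 202. The type IV chains Col4a2 and Col4a1 came next at 141 and 137 CPM per kb. Col6a1, a chain of the beaded filaments, was at 132 and Col5a3, a type V chain known from Schwann cells, at 103. At the lower end Col25a1, Col9a1, Col22a1 and Col6a4 were at 0.22, 0.21, 0.18 and 0.15 CPM per kb. Collagen RNA in these nerves thus came mostly from type I, III, IV, V and VI chains.

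The summed level of all 42 collagen genes was 14124 ± 499 CPM (SD, n = 3) in intact control nerve and 13565 ± 38.0 CPM in intact dKO nerve. At 5 days control nerve had 14019 ± 2577 CPM and dKO nerve 19057 ± 1508 CPM. The control libraries at 5 days were at 11064, 15798 and 15195 CPM, with the female library lowest, and all 3 dKO libraries lay above them. Fibrillar collagens made up 58.5% ± 0.91 of collagen CPM in intact control nerve and 68.1% ± 3.43 at 5 days, and 57.3% ± 0.88 and 70.1% ± 3.08 in dKO nerve. Basement membrane collagens went the other way, from 24.2% ± 1.19 to 17.6% ± 2.68 in control nerve and from 25.5% ± 0.61 to 14.8% ± 1.85 in dKO nerve. Other collagens held 17.4% ± 0.39, 14.3% ± 0.75, 17.2% ± 0.29 and 15.1% ± 1.57 in control intact, control 5-day, dKO intact and dKO 5-day nerve. The fibrillar share was thus larger after injury in each genotype and the basement membrane share smaller, with no overlap between intact and injured libraries in the plot of summed CPM for the basement membrane class.

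**Figure D1:**
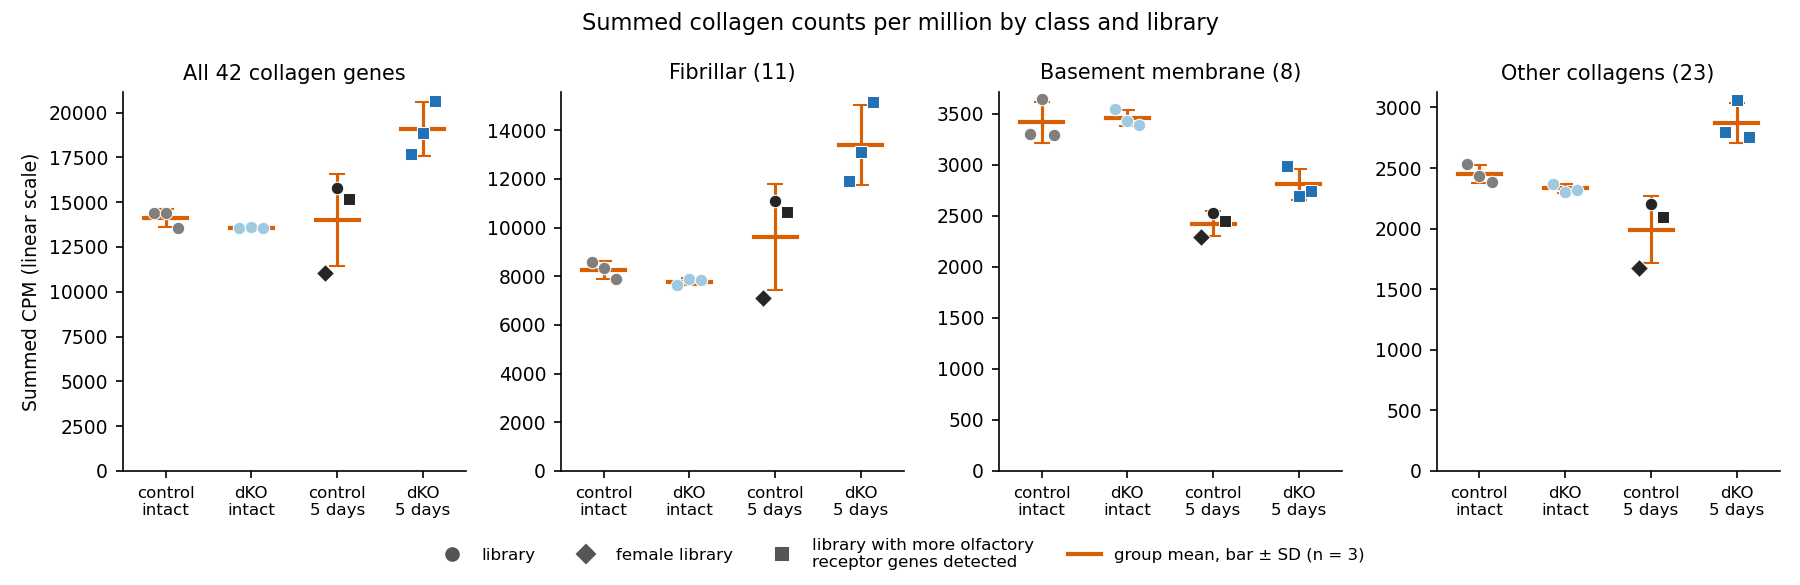
Summed CPM (y axis, linear, from 0) of all 42 collagen genes and of each class in the 12 libraries, by group (x axis); points are libraries, the bar and whiskers are the mean ± SD of 3. All dKO libraries at 5 days lie above all control libraries at 5 days in each panel, and the female control library is the lowest control library at 5 days in each.

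Injury in control nerve divided the fibrillar collagens. Of the 42 genes 10 rose and 13 fell 5 days after transection, where 24.4% of all 22384 tested genes rose and 22.4% fell. The median log2 change was -0.25 for the collagens and 0.09 for all genes. Of the 11 fibrillar genes 5 rose and 3 fell, with a median of -0.01. Col1a1, Col2a1, Col3a1, Col5a2 and Col27a1 rose, and Col24a1, Col5a3 and Col11a2 fell. With the library set term 7 of the 42 genes rose and 14 fell, where 23.8% of all genes rose and 21.1% fell. That term removed the rises of Col3a1, Col6a2 and Col6a3 (adjusted p = 0.162, 0.123 and 0.128) and added a fall of Col9a1 (-1.89, adjusted p = 0.0224).

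Col1a1 was at 2269, 2049 and 2015 CPM in intact control nerve and 2340, 3395 and 3306 at 5 days, and in dKO nerve at 1845, 1931 and 1994, then 4016, 4292 and 5028. It rose by a log2 change of 0.51 ± 0.14 (SE, adjusted p = 0.00691) in control nerve, where the injured libraries all lay above the intact ones. Col3a1 was at 1624, 1413 and 1352 CPM in intact control nerve and 1324, 2741 and 2809 at 5 days, and in dKO nerve at 1069, 1317 and 1025, then 2412, 3127 and 3581. Its rise in control nerve of 0.65 ± 0.24 (adjusted p = 0.0437) was spread unevenly, since the female library lay below every intact control library. The call was lost without any of the 3 intact or either male injured control library (adjusted p = 0.102 to 0.163). Col1a2 was at 2770, 2649 and 2522 CPM in intact control nerve and 1865, 3118 and 2903 at 5 days, a log2 change of -0.01 ± 0.16 (adjusted p = 0.966), and in dKO nerve at 2387, 2483 and 2490, then 3391, 3397 and 4263. For Col1a2 and Col3a1 the female library was the only injured control library below the intact range, and its sum of epineurial fibroblast markers was 524 CPM, where the remaining pair of injured control nerves had 1512 and 1424. The part of that difference in these results was not tested.

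Type V collagen sits in the core of type I fibrils and limits their width. Its chains moved apart. Col5a2 was at 297, 362 and 234 CPM in intact control nerve and 708, 808 and 697 at 5 days, and in dKO nerve at 221, 241 and 215, then 617, 674 and 711, with no overlap in either genotype. It rose by 1.31 ± 0.14 (adjusted p = 2.66e-06). Col5a3 was at 862, 921 and 942 CPM in intact control nerve and fell to 205, 225 and 222 at 5 days. Its log2 change was -2.06 ± 0.10 (adjusted p = 1.40e-09), the opposite direction from Col5a2. Col5a1 was at 525, 539 and 521 CPM in control intact and 433, 575 and 538 in control injured nerve, and these groups overlapped (-0.04 ± 0.11, adjusted p = 0.814). Within a library the ratio of Col5a3 to Col5a1 counts, not corrected for length, was 1.72 ± 0.08 in control intact and 0.43 ± 0.04 in control injured nerve. The ratio of Col1a1 to Col1a2 went from 0.80 ± 0.02 to 1.16 ± 0.09.

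Of the less abundant fibrillar genes Col2a1, the collagen of cartilage, was at 20.4, 25.5 and 18.6 CPM in intact control nerve and 65.4, 61.8 and 48.3 at 5 days. It rose by 1.45 ± 0.16 (adjusted p = 2.81e-06) with no overlap. Markers of cartilage, bone and tendon summed to at most 4.56 CPM in any library. Col24a1, a fibrillar chain of bone and other tissues, was at 109, 237 and 140 CPM in intact control nerve and 3.66, 2.23 and 3.82 at 5 days. Its change of -5.65 ± 0.32 (adjusted p = 6.02e-08) was the largest fall of the 42 genes in control nerve. Col27a1 rose by 0.56 and Col11a2 fell by 1.45 on the log2 scale, while Col11a1 did not pass the test (-0.31).

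Among the 8 basement membrane genes 1 rose and 3 fell in control nerve, with a median of -0.50. Col4a1 and Col4a2, the chains of the ubiquitous type IV network, fell together. Col4a1 was at 1225, 1369 and 1353 CPM in intact control nerve and 468, 601 and 624 at 5 days. Col4a2 was at 1153, 1167 and 1190, then 409, 513 and 562. No injured library reached the intact range for either gene, and the log2 changes were -1.22 ± 0.11 and -1.24 ± 0.12 (adjusted p = 7.05e-07 and 9.58e-07). Col15a1, a collagen that links basement membranes to the fibrils below, was at 626, 796 and 452 CPM and then 252, 245 and 235. It fell by 1.36 on the log2 scale (SE 0.17, adjusted p = 1.21e-05). Col18a1, a heparan sulfate collagen whose end fragment is endostatin, was at 242, 278 and 249 CPM in intact control nerve and 1132, 1131 and 981 at 5 days. It rose by 2.08 ± 0.12 (adjusted p = 5.74e-09), the largest rise of the 42 genes in control nerve. The remaining chains, Col4a3 to Col4a6, which form the networks of kidney, lung and some other membranes, were at 1.94 to 20.0 CPM in the control libraries. None of these 4 passed the test in control nerve, with changes from -0.56 (Col4a4) to 0.46 (Col4a6). Markers of perineurial cells, which have basement membranes, summed to 1451 to 2732 CPM in control intact and 966 to 1144 in control injured nerve. Of these 7 markers 1 fell and 0 rose, where 22.4% of all genes fell and 24.4% rose. The part of these cells in the fall of type IV genes was not tested.

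Of the 23 other collagens 4 rose and 7 fell, with a median of -0.24, or 2 and 8 with the set term. Of all genes 24.4% rose and 22.4% fell, or 23.8% and 21.1% with the set term. FACIT collagens, which lie on the surface of fibrils, held 4 of the falls and no rise among 9 genes. Col12a1, a FACIT of dense connective tissue, was at 69.8, 77.9 and 84.5 CPM in intact control nerve and 16.3, 47.5 and 31.0 at 5 days (-1.29 ± 0.28, adjusted p = 0.00272). Col16a1 was at 278, 288 and 216 CPM, then 144, 173 and 122 (-0.83 ± 0.14, adjusted p = 0.000236). Neither gene had an injured library within its intact range. Col9a2 fell by 2.10 and Col9a3 by 0.83 on the log2 scale. Of the beaded filament genes Col6a2 rose by 0.33 ± 0.13 (adjusted p = 0.0446) and Col6a3 by 0.47 ± 0.16 (adjusted p = 0.0263), and each call was lost without any of 4 of the 6 control libraries (adjusted p = 0.0575 to 0.233). Col6a1 did not pass the test (0.30 ± 0.16, adjusted p = 0.143).

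The steepest losses outside the fibrillar class were in a membrane collagen and a network collagen. Col23a1, which spans the cell membrane, was at 412, 596 and 496 CPM in intact control nerve and 13.1, 13.5 and 15.6 at 5 days, a change of -5.16 ± 0.17 (adjusted p = 2.30e-11). Col8a2, a short chain collagen of Descemet's membrane and vessel walls, was at 39.4, 40.8 and 54.5 CPM and then 2.38, 2.74 and 3.94 (-3.90 ± 0.24, adjusted p = 8.69e-09). Its partner chain Col8a1 rose by 1.28 ± 0.32 (adjusted p = 0.00753). In all, 19 of the 23 calls in control nerve were made again under each of the 23 alternatives tried. Without control intact replicate 2 the rises numbered 6 instead of 10; the lost genes were Col3a1, Col6a2, Col6a3 and Col25a1.

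In dKO nerve injury raised more collagen genes, 19, and lowered 11, where 22.0% of all genes rose and 22.6% fell. The median was 0.29 for the collagens and 0.05 for all genes. The directions were those of control nerve for 33 of 42 genes (78.6%, against 82.7% of all tested genes). The genes called higher in both genotypes were 9 of the 42 (21.4%, against 15.8%), and those called lower in both were 11 (26.2%, against 17.6%). No collagen gene was called in opposite directions, as were 0.206% of all genes. The change in dKO nerve was above that in control nerve for 36 of 42 (85.7%, against 47.0%). Across the 42 genes the changes in control and dKO nerve had a Pearson r of 0.95, given as a description, since genes of the same libraries are not independent. With the library set term 7 were called higher and 7 lower, where 9.59% of all genes were higher and 9.62% lower, and the calls included 13 of the 30. Those 13 were the rises of Col1a1, Col2a1, Col5a2, Col18a1, Col6a2 and Col28a1 and the falls of Col5a3, Col24a1, Col4a1, Col4a2, Col8a2, Col9a2 and Col23a1. The dKO injured libraries all belong to the second set and the intact ones to the other set, so the set and the injury can be separated only through the control libraries.

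**Figure D2:**
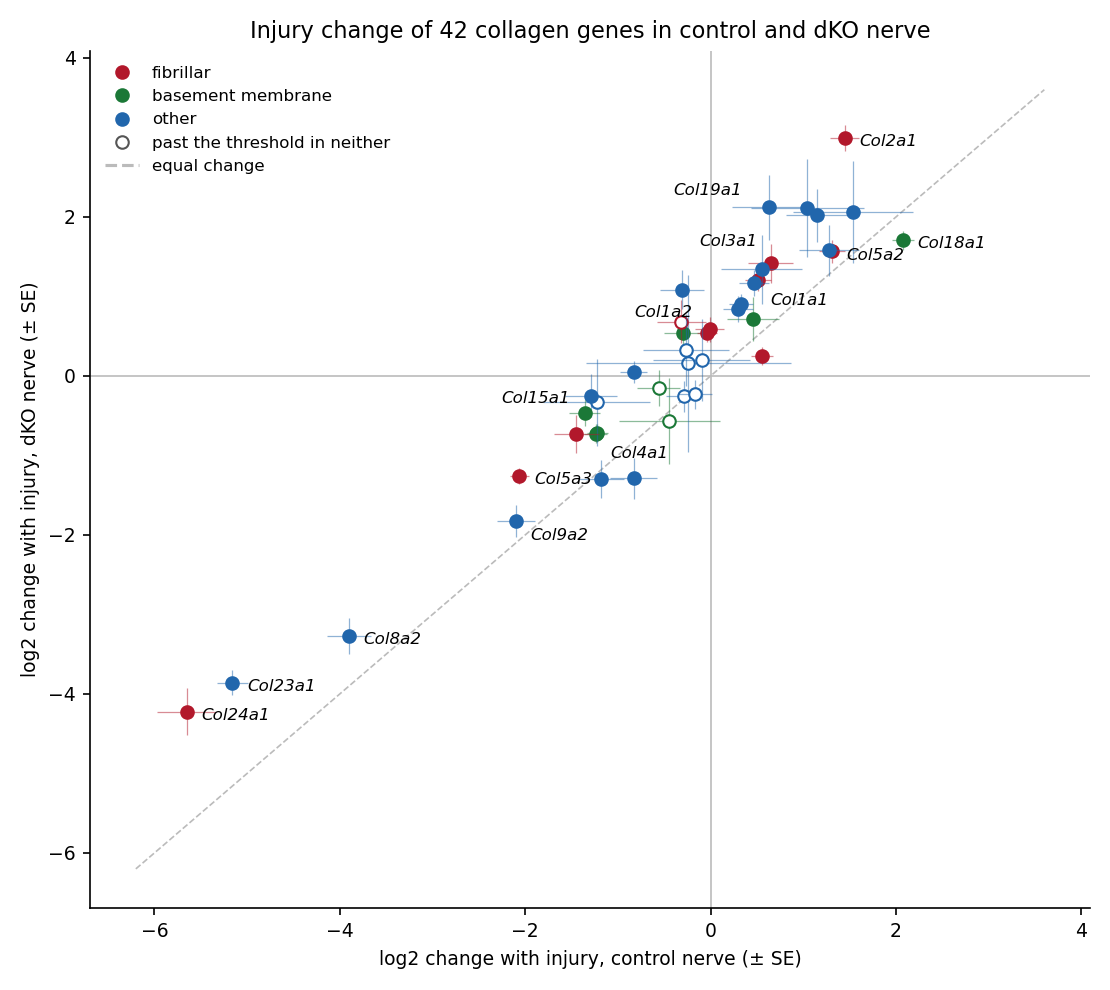
Log2 change with injury in control nerve (x axis) and in dKO nerve (y axis) of the 42 collagen genes, with SE bars, coloured by class; open points passed the test in neither genotype and the dashed line marks equal change. Of the 42 genes 36 lie above the dashed line, and Col24a1, Col23a1 and Col8a2 have the lowest changes in each genotype.

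Of the fibrillar genes 6 rose and 3 fell in dKO nerve, with a median of 0.59, where 22.0% of all genes rose and 22.6% fell. With the set term 4 rose and 2 fell, where 9.59% of all genes rose and 9.62% fell. Col2a1 rose by 2.99 ± 0.16 (adjusted p = 6.03e-09), from 10.9, 15.3 and 12.9 CPM to 100, 113 and 98.4. Col1a1 rose by 1.21 ± 0.14 (adjusted p = 8.24e-06), Col3a1 by 1.42 ± 0.25 (adjusted p = 0.000499) and Col1a2 by 0.59 ± 0.16 (adjusted p = 0.00855). Col5a2 rose by 1.57 ± 0.14 and Col5a1 by 0.54 ± 0.11 (adjusted p = 7.03e-07 and 0.00107). With the set term Col1a1, Col2a1 and Col5a2 were still called higher, at 1.00, 3.39 and 1.69, and Col1a2, Col3a1 and Col5a1 were not (adjusted p = 0.437, 0.156 and 0.140). Col24a1 fell by 4.22 and Col5a3 by 1.26 on the log2 scale.

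Of the basement membrane genes 3 rose and 3 fell in dKO nerve, where 22.0% of all genes rose and 22.6% fell. With the set term 1 rose and 2 fell, where 9.59% of all genes rose and 9.62% fell. Col4a1 was at 1389, 1369 and 1369 CPM in intact dKO nerve and 838, 795 and 877 at 5 days, and Col4a2 at 1378, 1235 and 1265, then 850, 723 and 771. They fell by 0.72 and 0.73 on the log2 scale (adjusted p = 0.000147 and 0.000199). Col18a1 rose by 1.71 ± 0.12 (adjusted p = 5.91e-08), from 256, 239 and 211 CPM to 873, 703 and 732. These 3 calls were also made with the set term, at -0.94, -1.01 and 1.91. Col15a1 fell by 0.47 on the log2 scale (adjusted p = 0.0344) and Col4a5 and Col4a6 rose by 0.54 and 0.72 (adjusted p = 0.0448 and 0.0470). Each of these 3 calls was lost with the set term and without any of 4 to 6 of the compared libraries.

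Of the other collagens 10 rose and 5 fell in dKO nerve, where 22.0% of all genes rose and 22.6% fell. With the set term 2 rose and 3 fell, where 9.59% of all genes rose and 9.62% fell. The beaded filament genes Col6a1, Col6a2 and Col6a3 rose by 0.84, 0.91 and 1.17 (adjusted p = 0.000746, 5.04e-05 and 4.55e-05), and of these Col6a2 alone kept its call with the set term (0.77, adjusted p = 0.0350). Col28a1, known from peripheral nerve, rose by 1.09 ± 0.24 (adjusted p = 0.00351). Col23a1 fell by 3.86 and Col8a2 by 3.27 on the log2 scale. The FACIT genes Col19a1 and Col22a1 rose by 2.12 and 2.11 (adjusted p = 0.000733 and 0.0125) from levels near 1 CPM. Col19a1 was at 1.07, 1.01 and 1.09 CPM in intact dKO nerve and 5.32, 5.28 and 3.12 at 5 days, and Col22a1 at 0.88, 0.49 and 0.85, then 3.84, 3.92 and 1.73. Control replicate 4, which shares the library set, was high for both genes as well, at 3.66 CPM each, against 0.50 to 1.57 in the other injured control libraries. With the set term the change of Col22a1 was -0.13 and that of Col19a1 0.78, and neither passed the test.

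Of the remaining members several changed with injury and others passed no test. Col7a1, the collagen of anchoring fibrils, fell by 1.18 in control and 1.29 in dKO nerve on the log2 scale (adjusted p = 0.000955 and 0.000552). The membrane collagens Col25a1 and Col13a1 rose in dKO nerve by 2.02 and 1.34 (adjusted p = 0.000222 and 0.0211), and the beaded filament gene Col6a4 by 2.06 (adjusted p = 0.0179). Col25a1 rose in control nerve too, by 1.15 (adjusted p = 0.0106), and neither Col13a1 nor Col6a4 passed the test there. In dKO nerve the calls of Col7a1, Col25a1, Col13a1 and Col6a4 were all lost with the set term (adjusted p = 0.117, 0.0634, 0.421 and 0.591). Col14a1 and Col20a1, both FACIT genes, Col17a1, a membrane collagen of hemidesmosomes, Col4a3, Col6a5, Col6a6, Col9a1 and Col11a1 passed the test in none of the 5 comparisons. Col6a5 had the largest errors, with an SE of 1.10 for injury in control nerve, and ran from 2.89 to 175 CPM among the intact control libraries.

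In intact nerve no difference between genotypes passed the test for any of the 42 collagen genes, and across all genes 0.00% were called higher and 0.00447% lower in dKO nerve. By edgeR the smallest adjusted p among them was 0.841, and 3 of 42 had an unadjusted p under 0.05, where 5.80% of all genes did, so this count is near the background. These were Col2a1 (-0.72 ± 0.16), Col5a3 (0.39 ± 0.10) and Col5a2 (-0.40 ± 0.14), named after their values were seen. DESeq2 called Col2a1 lower and limma-voom called none. Class medians were -0.11 for fibrillar, 0.10 for basement membrane and 0.02 for other collagens. Col2a1 was at 10.9, 15.3 and 12.9 CPM in intact dKO nerve, all below the control libraries, and Col5a3 at 1279, 1075 and 1223, all above them.

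At 5 days collagen genes of each class were higher in dKO nerve. Of the 42 genes 17 were higher and 1 was lower, where 3.12% of all genes were higher and 8.97% lower. The median difference was 0.59 for the collagens and -0.02 for all genes, and 36 of the 42 were above 0. Of the classes 5 of 11 fibrillar, 5 of 8 basement membrane and 7 of 23 other genes were higher, with medians of 0.61, 0.61 and 0.58, or 0.55, 0.46 and 0.34 with the library set term. A difference between classes was not tested. The number of higher genes fell to 11 without control replicate 1, the female library, to 9 without dKO replicate 3 and to 11 without dKO replicate 4. Of the 18 calls 8 were made whichever library was left out, those of Col2a1, Col4a1, Col4a2, Col5a1, Col5a3, Col16a1, Col23a1 and Col24a1. With the library set term 4 genes were higher and 0 lower, where 0.648% of all genes were higher and 1.65% lower, with a collagen median of 0.43. These 4 were Col2a1, Col5a3, Col16a1 and Col23a1, and the rest of the 18 calls were lost with that term.

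**Figure D3:**
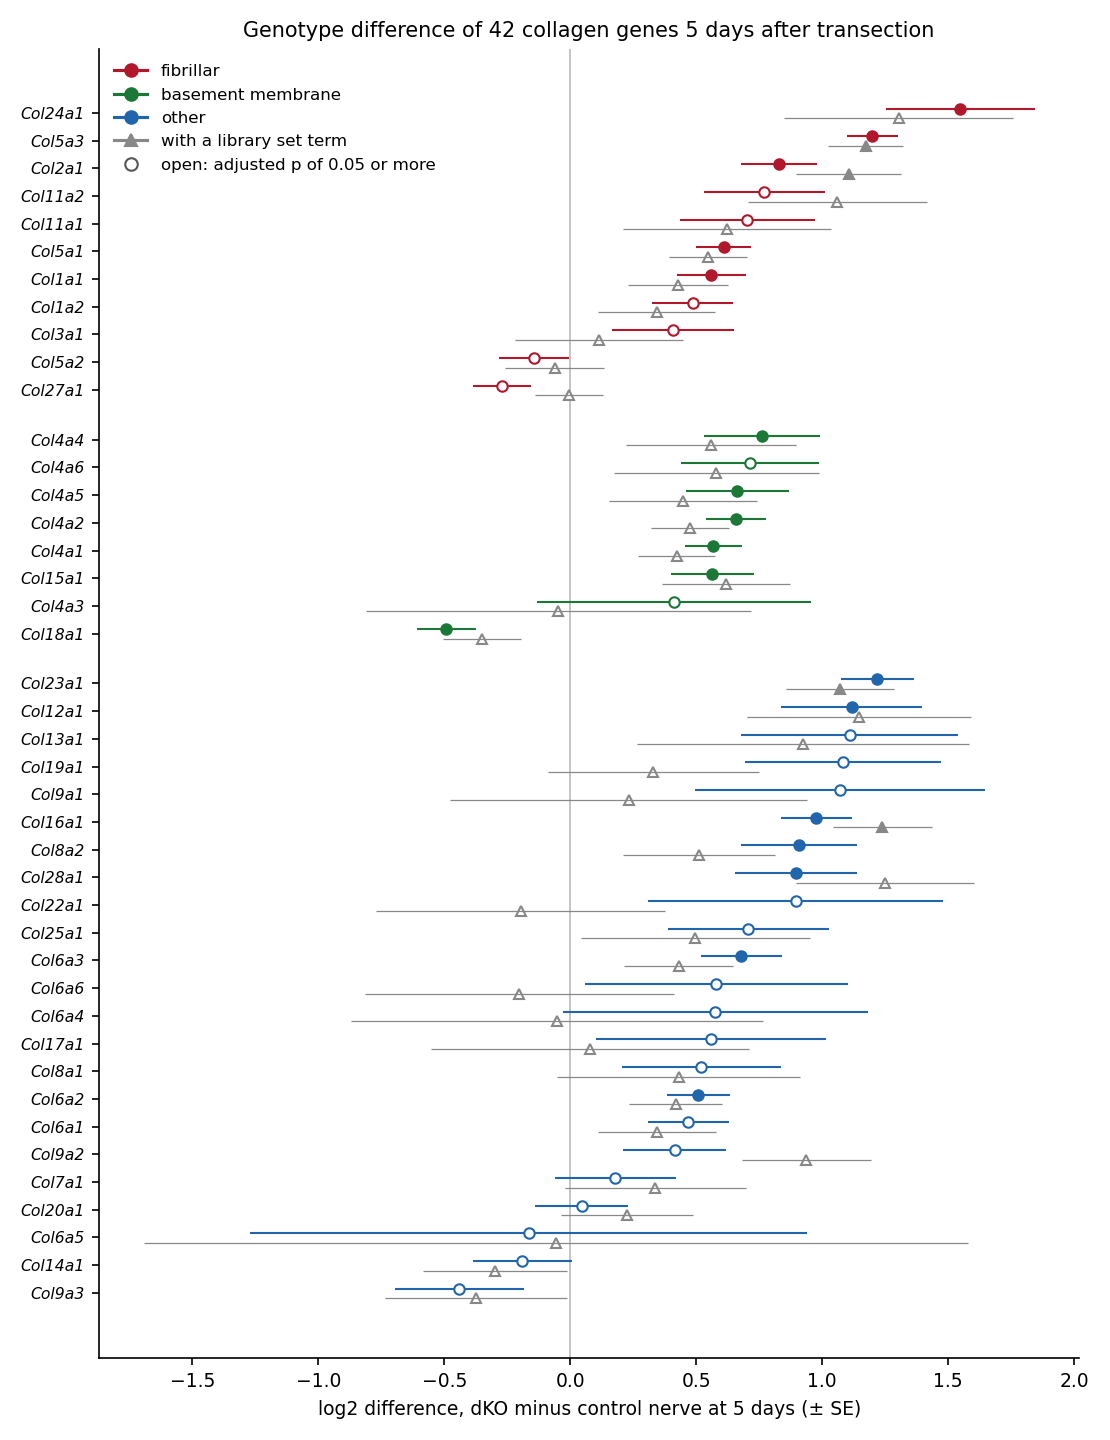
Log2 difference between dKO and control nerve at 5 days (x axis, positive means higher in dKO) of each collagen gene (y axis, ordered within class), with SE bars; circles are from the fit of 4 groups, grey triangles from the fit with a library set term, filled where adjusted p was under 0.05. Most circles lie right of 0 in each class, and filled triangles stand at Col5a3, Col2a1, Col23a1 and Col16a1.

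Among the fibrillar genes Col5a3 differed most clearly. It was at 473, 497 and 528 CPM in dKO nerve at 5 days against 205, 225 and 222 in control nerve, a difference of 1.20 ± 0.10 (adjusted p = 5.19e-06), and of 1.17 (adjusted p = 0.00115) with the set term. Every injured dKO library lay above every injured control library and below every intact library. Col24a1 was at 160, 160 and 208 CPM in intact dKO nerve and at 9.24, 9.83 and 9.19 at 5 days, against 3.66, 2.23 and 3.82 in control nerve at 5 days (1.55 ± 0.29, adjusted p = 0.00587). These groups did not overlap, and with the set term the difference was 1.30 (adjusted p = 0.238). Col2a1 was higher by 0.83 ± 0.15 (adjusted p = 0.00265), or 1.11 (adjusted p = 0.0143) with the set term. Col5a1 was at 736, 822 and 802 CPM in dKO nerve, above all control libraries (0.61 ± 0.11, adjusted p = 0.00221). With the set term its call was lost (0.55, adjusted p = 0.113). Col1a1 was higher by 0.56 ± 0.14 (adjusted p = 0.0168), a call lost without control replicate 1 (0.40, adjusted p = 0.0626) or dKO replicate 4 (0.46, adjusted p = 0.0691). It was also lost with the set term (0.43, adjusted p = 0.411). Neither Col1a2 (0.49, adjusted p = 0.0636) nor Col3a1 (0.41, adjusted p = 0.302) nor Col5a2 (-0.14, adjusted p = 0.536) passed the test.

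Among the basement membrane genes 4 type IV chains and Col15a1 were higher in dKO nerve and Col18a1 was lower. Col4a1 and Col4a2 were higher in dKO nerve by 0.57 ± 0.11 and 0.66 ± 0.12 (adjusted p = 0.00467 and 0.00242), and the summed type IV level was 1676 ± 92.6 CPM against 1096 ± 170 CPM in control nerve. In intact nerve the same sum was 2531 ± 86.7 CPM in control and 2721 ± 87.3 CPM in dKO, so injured dKO nerve lay between intact nerve and injured control nerve. With the set term the differences were 0.42 and 0.47 and did not pass the test (adjusted p = 0.239 and 0.178). Col4a5 was at 9.42, 18.7 and 17.8 CPM in control and 26.4, 22.7 and 23.6 in dKO nerve (0.66 ± 0.21, adjusted p = 0.0499). Col4a4 was at 5.82, 9.69 and 9.61, in control and 15, 11.9 and 15.7 in dKO nerve (0.76 ± 0.23, adjusted p = 0.0454). The dKO libraries were above the controls in each case, but the Col4a4 call was lost without any of 5 of the 6 compared libraries (adjusted p = 0.0586 to 0.158) and the Col4a5 call without any of 4 (adjusted p = 0.0929 to 0.155). Col15a1 was at 469, 537 and 488 CPM in intact and 357, 415 and 310 in injured dKO nerve. Control nerve at 5 days had 252, 245 and 235 CPM, a genotype difference of 0.56 ± 0.17 (adjusted p = 0.0400). The Col15a1 call was lost without any of 5 libraries (adjusted p = 0.0775 to 0.162). Col18a1 was the only collagen gene called lower, by a log2 difference of -0.49 ± 0.12 (adjusted p = 0.0137), with dKO libraries at 703 to 873 CPM and control libraries at 981 to 1132. That call was lost without control replicate 2 or dKO replicate 3 (adjusted p = 0.0531 and 0.0733) and with the set term (-0.35, adjusted p = 0.378).

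**Figure D4:**
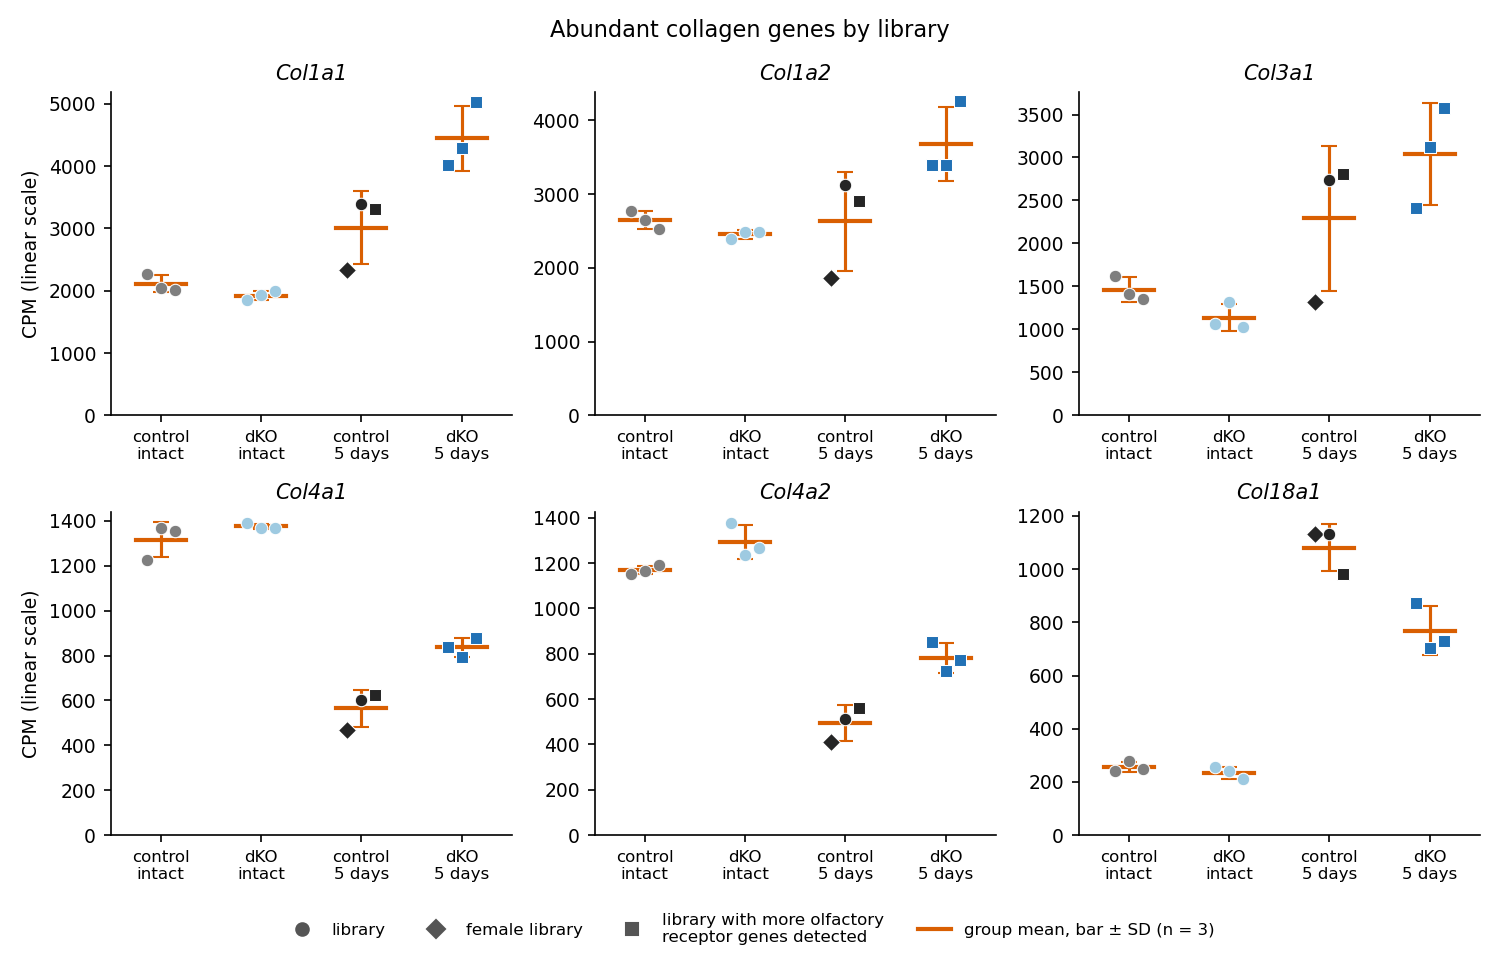
CPM (y axis, linear, from 0) of Col1a1, Col1a2, Col3a1, Col4a1, Col4a2 and Col18a1 in the 12 libraries by group (x axis); points are libraries, the bar and whiskers are the mean ± SD of 3. Col4a1 and Col4a2 fall after injury to between 795 and 877 CPM and between 723 and 850 CPM in dKO and lower in control nerve. Col18a1 rises to between 703 and 873 CPM in dKO and between 981 and 1132 CPM in control nerve. The difference of its injury changes between genotypes did not pass the test.

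Among the other collagens Col16a1 and Col23a1 stood out. Col16a1, a FACIT found near cell surfaces, was at 275, 313 and 278 CPM in dKO injured nerve against 312, 265 and 260 in intact dKO nerve, so these groups overlapped. In control injured nerve it was at 122 to 173 CPM, and the genotype difference was 0.98 ± 0.14 (adjusted p = 0.000491), or 1.24 (adjusted p = 0.00501) with the set term. Col23a1 was at 440, 438 and 546 CPM in intact dKO nerve and 35.3, 33.4 and 29.3 at 5 days, against 13.1 to 15.6 in control nerve (1.22 ± 0.15, adjusted p = 9.56e-05, and 1.07, adjusted p = 0.0205, with the set term). Col12a1 was at 81.0, 76.7 and 86.4 CPM in dKO intact and 68.2, 71.0 and 66.3 in dKO injured nerve, above all control injured libraries (1.12 ± 0.28, adjusted p = 0.0250). Its call was lost without control replicate 4 or any dKO library (adjusted p = 0.0504 to 0.0763). Col8a2 was at 45.1, 53.0 and 65.1 CPM in intact dKO nerve and 4.5, 5.45 and 7.11 at 5 days. Control nerve at 5 days had 2.38, 2.74 and 3.94 CPM, a genotype difference of 0.91 ± 0.23 (adjusted p = 0.0191). This call was lost without any of 4 libraries (adjusted p = 0.0523 to 0.0877). Col28a1 was at 175, 236 and 210 CPM in dKO and 142, 105 and 87.2 in control injured nerve (0.90 ± 0.24, adjusted p = 0.0339; lost without any of 4 libraries, adjusted p = 0.0731 to 0.114).

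The beaded filament genes differed less. Col6a2 was at 312, 243 and 261 CPM in control intact and 281, 280 and 217 in intact dKO nerve, and at 312, 350 and 364 and 487, 518 and 456 at 5 days. Col6a3 was at 215, 168 and 207, and 196, 224 and 162, then at 207, 287 and 324, and 418, 461 and 432. Their genotype differences at 5 days were 0.51 ± 0.13 and 0.68 ± 0.16 (adjusted p = 0.0176 and 0.0134). Leaving out a library ended the call of Col6a2 in 4 cases and of Col6a3 in 2 (adjusted p = 0.0511 to 0.0769), control replicate 1 and dKO replicate 3 among them for each gene. Col6a1 was at 584, 376 and 457 CPM, 492, 454 and 403, 476, 635 and 634, and 827, 878 and 708 in control intact, dKO intact, control 5-day and dKO 5-day nerve. Its dKO libraries lay highest at 5 days, and the difference of 0.47 ± 0.16 did not pass the test (adjusted p = 0.0749). With the set term none of the 6 beaded filament genes passed it.

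**Figure D5:**
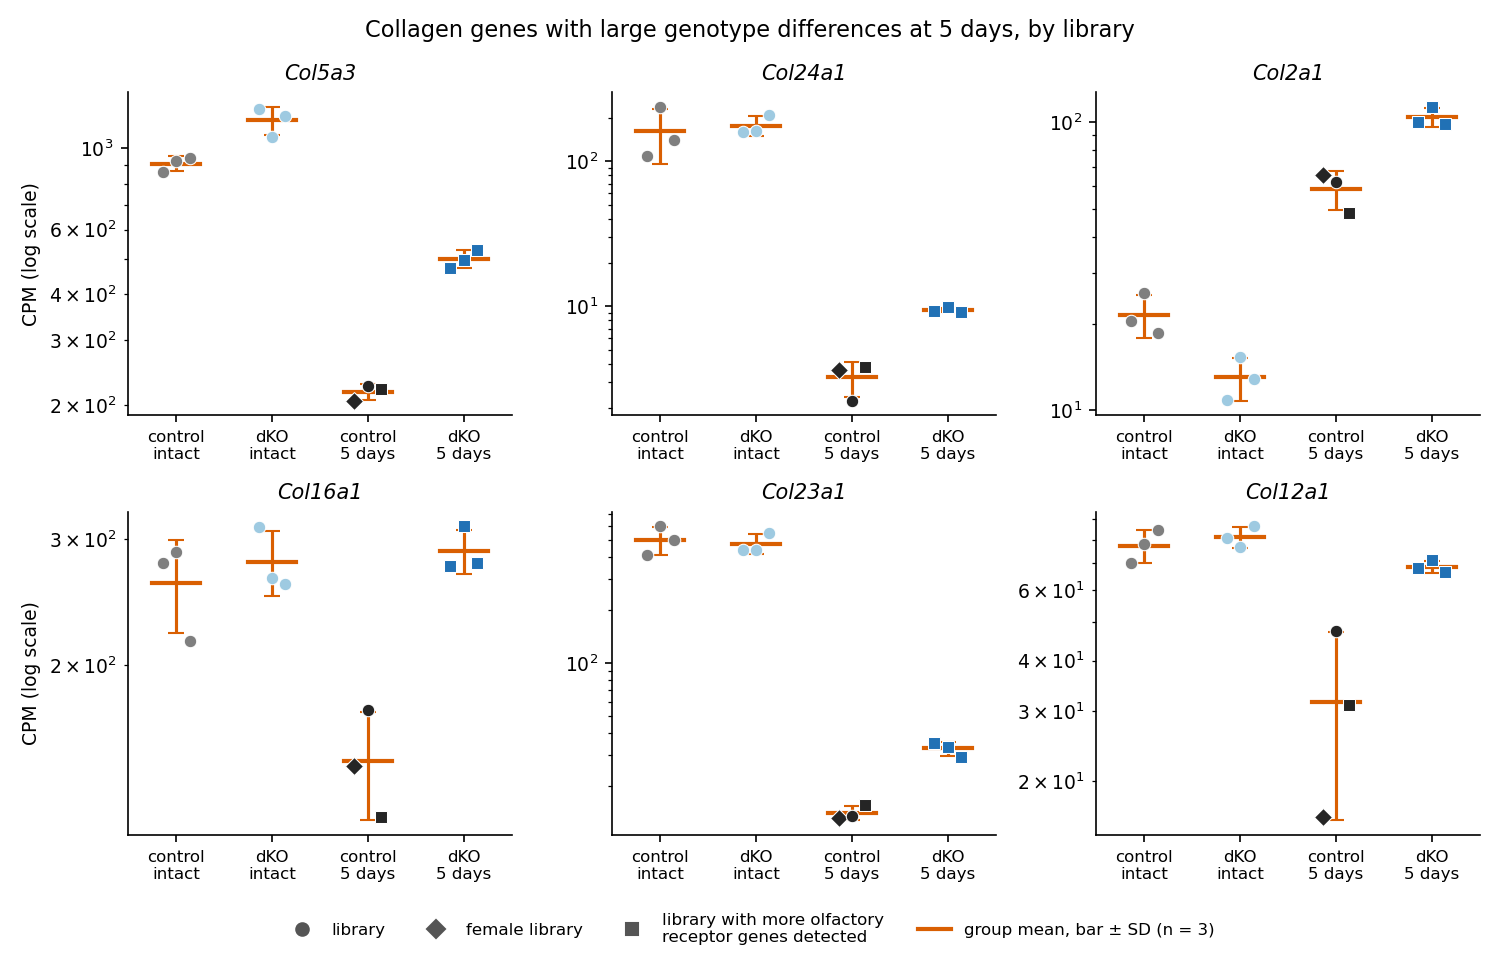
CPM (y axis, log scale) of Col5a3, Col24a1, Col2a1, Col16a1, Col23a1 and Col12a1 in the 12 libraries by group (x axis); points are libraries, the bar and whiskers are the mean ± SD of 3. In each panel all dKO libraries at 5 days lie above all control libraries at 5 days, and Col24a1 and Col23a1 are far below intact nerve in both genotypes.

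The injury change itself differed between genotypes for 4 collagen genes, all with a higher value in dKO nerve, and for 0 in the other direction, where 0.737% of all genes had a higher and 2.17% a lower value. The difference of changes was 1.55 ± 0.22 for Col2a1 (adjusted p = 0.00128), 0.81 ± 0.14 for Col5a3 (adjusted p = 0.00545), 1.30 ± 0.20 for Col23a1 (adjusted p = 0.00285) and 0.88 ± 0.20 for Col16a1 (adjusted p = 0.0278). The 4 genes do this in different ways. Col2a1 rose in both genotypes and more in dKO, Col5a3 and Col23a1 fell in both and less in dKO, and Col16a1 fell in control nerve with a change of 0.05 ± 0.14 (adjusted p = 0.799) in dKO nerve. The median over the 42 genes was 0.59, against -0.03 for all genes. The call of Col16a1 was lost without any of 5 libraries, control replicate 1 at 5 days among them (adjusted p = 0.0513 to 0.0881). The number of higher values was 7 without control intact replicate 1 and 7 without control replicate 4 at 5 days. With the set term Col2a1 and Col16a1 were called, and Col5a3 and Col23a1 were not (adjusted p = 0.0678 and 0.0660), where 0.335% of all genes had a higher and 0.433% a lower value. This comparison and that at 5 days share the same injured libraries, so they are not separate evidence.

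The 4 genes lie on different chromosomes of the mm10 build (GENCODE M21 positions): Col2a1 at chr15:97975602-98004695, Col5a3 at chr9:20770050-20815067, Col16a1 at chr4:130047840-130099283 and Col23a1 at chr11:51289920-51583918. TFEB and TFE3 bind an E-box with the core CACGTG, so the RefSeq promoter windows (GRCm38.p6, 250 bases before to 50 after a start) were searched on both strands. Windows were given for 34 of the 42 collagen genes. The letters CACGTG were in 0 of these 34, against 8.09% of 27025 genes with a window. The AP-1 letters TGANTCA were in 1 of 34, that of Col6a1, against 8.97% of genes. CCAAT was in 13 of 34 (38.2%, against 41.1%) and TATAAA in 4 of 34 (11.8%, against 15.7%). No match says only that these letters are not in this window. The 250 bases before the start are shown for the 3 of the 4 genes that have a window, 5′ to 3′ on the gene's strand, with CCAAT on either strand in capitals. Col5a3 (chr9:20815068-20815317, minus strand) and Col16a1 (chr4:130047590-130047839, plus strand) hold 1 such match each and Col23a1 (chr11:51289670-51289919, plus strand) holds 0.
Col5a3: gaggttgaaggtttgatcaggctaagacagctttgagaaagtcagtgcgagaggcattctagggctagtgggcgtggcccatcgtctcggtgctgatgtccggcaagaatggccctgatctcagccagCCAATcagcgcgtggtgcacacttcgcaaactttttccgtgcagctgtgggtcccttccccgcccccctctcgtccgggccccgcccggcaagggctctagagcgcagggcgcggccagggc
Col16a1: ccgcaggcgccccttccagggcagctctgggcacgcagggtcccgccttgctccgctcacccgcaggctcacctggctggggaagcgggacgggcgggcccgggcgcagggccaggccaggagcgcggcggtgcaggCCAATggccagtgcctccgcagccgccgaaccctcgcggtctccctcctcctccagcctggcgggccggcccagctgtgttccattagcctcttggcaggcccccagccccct
Col23a1: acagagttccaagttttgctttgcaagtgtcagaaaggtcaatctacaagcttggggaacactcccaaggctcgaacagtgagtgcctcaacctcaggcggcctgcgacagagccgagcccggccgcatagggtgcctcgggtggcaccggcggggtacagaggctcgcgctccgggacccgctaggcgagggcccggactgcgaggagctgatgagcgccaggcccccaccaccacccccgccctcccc

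Type IV genes stand in head-to-head pairs, and the members of the only abundant pair, Col4a1 and Col4a2, moved together. Col4a1 (minus strand) and Col4a2 (plus strand) start at positions 11312826 and 11312805 of chromosome 8, so their gene models overlap by 22 bases. The ratio of Col4a2 to Col4a1 counts was 0.89 ± 0.05, 0.94 ± 0.05, 0.88 ± 0.02 and 0.93 ± 0.07 in control intact, dKO intact, control 5-day and dKO 5-day nerve. The ranges of intact and injured nerve overlapped within each genotype, and so did those of the genotypes at each state. Col4a3 and Col4a4 start 72 bases apart on chromosome 1, and Col4a5 and Col4a6 start 1309 bases apart on chromosome X. The ratio of Col4a3 to Col4a4 ranged from 0.21 to 1.17 among the control intact libraries, with control replicate 2 lowest. Whether counting used the strand is not given in the sources used here, so reads from overlapping genes on opposite strands may be shared, for Col4a1 and Col4a2 over 22 bases of exon and for Col9a3 and Tcfl5 over 234.

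Genes that make, process and bind collagen were read from lists chosen with earlier results known, and their counts stand against the shares of all genes given above for each comparison. Of 19 genes of chain modification and folding 6 rose and 5 fell with injury in control nerve, and 8 rose and 2 fell in dKO nerve, or 4 and 2 with the set term. In control nerve 24.4% of all genes rose and 22.4% fell, so the control counts of this list are not far from the background. P4ha1, a catalytic subunit of prolyl 4-hydroxylase, fell by 2.00 in control and 1.46 in dKO nerve on the log2 scale (adjusted p = 1.69e-08 and 5.20e-07), while P4hb, its other subunit, rose by 0.87 ± 0.10 in control nerve (adjusted p = 4.41e-06). Leprel1, a prolyl 3-hydroxylase, fell by 1.28 and 1.60. Fkbp10 and Serpinh1, chaperones of collagen, rose in dKO nerve by 1.29 and 0.71 (adjusted p = 1.03e-05 and 9.63e-05), and the call of Serpinh1 was lost with the set term (adjusted p = 0.0889). Between genotypes at 5 days P4ha1 alone passed the test, at 0.46 ± 0.13 (adjusted p = 0.0296), and it did not with the set term (adjusted p = 0.569).

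Of 13 genes of processing and crosslinking 4 rose and 1 fell in control nerve and 4 rose and 2 fell in dKO nerve. These were 3 and 2 in control and 1 and 2 in dKO nerve with the set term. Lox, which crosslinks fibrils, fell by 3.42 and 2.93 on the log2 scale (adjusted p = 4.15e-05 and 0.000139), and its relative Loxl2 rose by 1.24 and 1.54 (adjusted p = 6.25e-06 and 1.10e-06). Tll1, a protease that trims procollagen ends, was lower in dKO nerve at 5 days by a log2 difference of -1.23 ± 0.16 (adjusted p = 0.000154, and 0.0154 with the set term). Its injury change also differed between genotypes (-1.31 ± 0.22, adjusted p = 0.00435), though not with the set term (adjusted p = 0.0686). Of 6 tested genes of collagen degradation 5 rose in each genotype, or 4 in each with the set term, among them Ctsk by 1.22 and 1.64 and Mmp14 by 1.62 and 1.41. Fap, a fibroblast protease, was higher in dKO nerve at 5 days (0.54 ± 0.15, adjusted p = 0.0286), as was Loxl2 (0.50 ± 0.14, adjusted p = 0.0326), and neither was with the set term (adjusted p = 0.473 and 0.490).

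Of 11 collagen receptors 3 rose and 1 fell in control nerve, 4 were higher and 2 lower after injury of dKO nerve, and none passed the test between genotypes. The set term left 4 rises and 1 fall in control nerve and 2 rises and 0 falls in dKO nerve. Ddr1, a receptor kinase for collagen, fell by 0.50 on the log2 scale in each (adjusted p = 0.000811 and 0.000894, and 0.0969 in dKO nerve with the set term). Itga10, an integrin chain, rose by 1.33 and 0.71 (adjusted p = 0.000319 and 0.0223). Of 11 fibril associated proteins 2 rose and 3 fell in control nerve and 3 rose and 3 fell in dKO nerve, or 1 and 3 and 2 and 2 with the set term. Ogn, a proteoglycan of fibrils, fell by 3.14 and 2.65 (adjusted p = 1.01e-07 and 6.29e-07). Sparc, a collagen-binding protein, fell by 1.58 in control and 0.66 in dKO nerve, the latter not called with the set term (adjusted p = 0.0580). It was higher in dKO nerve at 5 days by 0.75 ± 0.13 (adjusted p = 0.00147), and its injury change differed between genotypes by 0.92 ± 0.18 (adjusted p = 0.0110). With the set term neither was called (adjusted p = 0.0648 and 0.103). None of the 5 lists had a gene past the threshold between genotypes in intact nerve.

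Summed levels of cell type markers were compared between genotypes at 5 days. The 5 endoneurial fibroblast markers ranged in sum from 169 to 179.5 CPM in the control libraries and from 225 to 285 CPM in the dKO libraries, without overlap. Of these Sox9 alone passed the test (0.69, adjusted p = 0.0459, and 0.128 with the set term), followed by Pdgfra (0.55, adjusted p = 0.0591). The 7 endothelial markers summed to 416 to 489 and 581 to 802 CPM, also without overlap, and none of them passed it. Epineurial fibroblast markers (524 to 1512 and 1084 to 1246 CPM), pericyte and smooth muscle markers (349 to 483 and 390 to 1400), macrophage markers (347 to 538 and 368 to 483), perineurial markers (966 to 1144 and 1004 to 1090) and Schwann cell markers (3059 to 4503 and 3469 to 4193) overlapped between genotypes in their sums. Though their sums overlapped, of the 8 Schwann cell markers 2 were higher and 4 lower in dKO nerve at 5 days. Of the 8 epineurial fibroblast markers 0 were higher and 1 lower, and of the 6 macrophage markers 1 was higher and 1 lower. In that comparison 3.12% of all genes were higher and 8.97% lower. The set term left 2 Schwann cell markers higher and 3 lower, 1 epineurial marker lower and 0 macrophage markers called. With that term 0.648% of all genes were higher and 1.65% lower. The fat cell sums were 439 to 827 and 699 to 980 CPM and those of skeletal muscle 6.01 to 9.94 and 9.58 to 44.1, and these overlapped too. No endoneurial fibroblast or endothelial marker was at 0 in any library. The part of these cell types in the collagen differences was not tested.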

How the data were processed

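Polyadenylated RNA of 12 nerve samples was sequenced on an Ion platform, and the deposited table holds raw counts per gene model, per the file headers. A second deposited table holds the authors' normalized values, a signal obtained by dividing the counts by a size factor per library. The build was mm10 and the tools included DESeq2 and R 4.2.1, per the submitters' processing notes. Aligner, counter, annotation and strand setting were not given in the sources used here. Members as well as gene lists were chosen with earlier results of these data known. Values were tested with edgeR 4.0.16 (R 4.3.3): TMM scaling, a minimum count of 10 in filterByExpr (22384 of 38087 gene models kept), a quasi-likelihood F-test over all 12 libraries in 4 groups, and Benjamini-Hochberg adjustment over all tested genes with a threshold of 0.05. The 5 comparisons were injury in each genotype, genotype in each state and the difference of the injury changes. CPM are TMM-scaled and errors are SD over 3 libraries or SE of the fit. An exact permutation test of 3 against 3 cannot go below p = 0.1 and was not used. Full values are given, per class, for the 4 genes of highest CPM, up to 6 of smallest p between genotypes and the 4 largest injury changes, and of each pathway list for some of those with the smallest p. Alternatives were DESeq2 1.42.0, limma 3.58.1, other scalings and filters, the compared groups alone, a replicate block, sex, library set, the authors' normalized values and each library left out. The analysis code was tested on simulated counts. Exon lengths and positions are from GENCODE M21.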

Additional observations from a re-analysis of the deposited data

Results flagged for a closer look

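The change with injury differed between dKO and control nerve, by edgeR's test of that difference itself, for 4 of the 42 collagen genes. The log2 change in dKO nerve exceeded that in control nerve by 1.55 for Col2a1, 0.81 for Col5a3, 0.88 for Col16a1 and 1.30 for Col23a1. With the library set term the values were 1.82, 0.78, 1.14 and 1.15, and the calls of Col5a3 and Col23a1 were lost (adjusted p = 0.0678 and 0.0660). The injured dKO libraries all belong to the library set with more olfactory receptor genes detected, and the part of that set in these differences was tested only through control replicate 4.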

How the results depend on the processing

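Of the 23 injury calls in control nerve 19 were made under every alternative tried, of the 30 in dKO nerve 13, of the 18 between genotypes at 5 days 4 and of the 4 differences of injury changes 1, that of Col2a1. With the library set term injury in dKO nerve raised 7 and lowered 7 collagen genes and the change of Col22a1 was -0.13, the genotypes at 5 days differed for 4 higher and 0 lower genes, and the difference of changes was higher for 2. DESeq2 called 1 collagen gene lower between genotypes in intact nerve and 13 higher in the difference of changes. Upper-quartile scaling called 7 in the latter, and it moved the median of all genes in dKO injury from 0.05 to 0.19. With limma-voom the median of other collagens between genotypes at 5 days was 0.85. With sex as a covariate the control injury medians were 0.19 for fibrillar and 0.15 for other collagens, and the fibrillar median of the difference was 0.54. The cause of these shifts was not tested.

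With a replicate block 10 collagen genes were higher between genotypes at 5 days and 11 of the 18 calls were kept, with injury counts of 8 higher and 13 lower in control and 18 and 10 in dKO nerve. The numbers share no stated origin, correlations of deviations between same-numbered libraries ran from -0.21 to 0.12, and control replicate 1 differs in sex between states.

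Leaving out 1 library at a time gave, for injury in control nerve, 6 to 12 higher genes and medians of -0.13 to 0.18 (fibrillar), -0.88 to -0.36 (basement membrane) and -0.27 to 0.14 (other), and for dKO nerve a median of 0.08 to 0.46 (other). Between genotypes at 5 days it gave 9 to 16 higher and 0 to 2 lower genes. For the difference of changes it gave 3 to 7 higher genes and medians of 0.54 to 0.79 (fibrillar) and 0.48 to 0.85 (other). Genes near 1 CPM, such as Col22a1 and Col6a4, have SEs of 0.59 to 0.66 between pairs of groups and 0.86 and 0.90 for the difference of changes, so small changes in them were not detectable at this depth.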

Other observations

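Col10a1, the collagen of hypertrophic cartilage and the symbol just under the count minimum, had 0, 0 and 4 counts in control intact, 1, 1 and 3 in dKO intact, 47, 25 and 9 in control injured and 2, 13 and 8 in dKO injured nerve. By edgeR its injury change in control nerve passed the test (adjusted p = 0.00643), and that in dKO nerve did not (adjusted p = 0.110). The difference between those changes did not pass it (adjusted p = 0.655). Emid2, an older name of a collagen gene that the symbol pattern misses, was at 43.3 to 84.9 CPM in the 12 libraries and passed the test in none of the 5 comparisons.

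Of the 3 control intact libraries replicate 2 was the lowest for 13 collagen genes and the highest for 17, and replicate 1 for 17 and 16. Some genes of replicate 2 were far from the others. It was highest for Col24a1, at 237 CPM against 109 and 140, and for Col28a1, at 198 against 102 and 115. Col6a5 was at 2.89 CPM there against 175 and 95 in the other control intact libraries, Col4a3 at 1.94 against 14.7 and 14.4, and Col8a1 at 28.3 against 75.9 and 87.7. Epineurial fibroblast markers of replicate 2 summed to 277 CPM against 793 and 644. Its sums were also lowest for perineurial (1451 against 2732 and 2552), endothelial (393 against 693 and 660) and fat cell markers (64.3 against 653 and 349). They were lowest too for pericyte and smooth muscle, skeletal muscle, and cartilage, bone and tendon markers. They were highest for Schwann cell (52872 against 41483 and 48171), endoneurial fibroblast and macrophage markers. The part of these differences in the collagen values was not tested.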
